A study of Mus musculus with 4 samples.

Results

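The genes described here encode the enzymes that start O-GalNAc glycans, build their cores and extend their chains. They were chosen by name: every gene with a symbol starting with Galnt, Gcnt or B3gnt, with C1galt1, C1galt1c1, B3galt1, B3galt2, B3galt4 and B3galt5. Of 908 named genes on the array, 35 met this rule, with 38 of its 1246 probe sets. Where a gene had more than 1 probe set, the one with the highest mean over the arrays was used. RNA was measured on 4 arrays, made from cultured vascular smooth muscle cells of wild-type mice. Every culture was grown in osteogenic medium, under which such cells take on features of bone cells. On 2 arrays the cells had also been exposed to streptozotocin at 0.4 mM, a nitrosourea that carries a glucosamine, and the other 2 arrays are controls without it. The titles name 2 cell samples, WT2 (replicate 1) and WTA (replicate 2), and each was measured once with and once without the compound. They are referred to as cultures. All 4 titles also carry the mark 3w, which the labels do not explain. The labels give no strain and no age in words, nor do they say whether WT2 and WTA are separate animals, so p-values measure only the spread between these arrays. Neither culture had a repeat array of either condition, so no fit holds the spread between such repeats. The study's stated purpose was to profile genes of sugar-chain synthesis while these cells calcify under streptozotocin. Its Runx2 knockout cells are not analysed here.

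An O-GalNAc glycan, also called a mucin-type O-glycan, begins when a polypeptide GalNAc-transferase (a GALNT enzyme) joins N-acetylgalactosamine to serine or threonine of a protein in the Golgi. C1GALT1 adds galactose to make core 1 and needs C1GALT1C1, known as COSMC, as its chaperone in the endoplasmic reticulum, while B3GNT6 makes core 3 in its place. GCNT1 and GCNT3 add a branch to core 1 and so make core 2, and B3GNT and B3GALT enzymes lengthen or end the chains. The glycans shield proteins from proteases, carry ligands of selectins and galectins, and control the cleavage of secreted factors such as FGF23.

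All values below are log2 values per probe set as deposited, and a difference of 1 is 2-fold. The array medians lay between 5.83 and 5.87 and the lower quartiles between 4.39 and 4.40. Values of 8 of the 35 genes lay below the lower quartile on every array, as did those of 167 of all 908 genes. Background holds much of such a value, so a small difference there was not detectable. Groups of 2 arrays limit the precision of every value. None of the 7 smooth muscle markers and none of the 9 osteogenic markers sought, Acta2 and Runx2 among them, had a named probe set, so the labelled cell type could not be checked against them. The WT2 control array correlated at 0.977 to 0.988 with the other arrays, and the arrays of WTA at 0.997 with each other.

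Streptozotocin was set against control first, to ask which of these enzymes respond to the compound. The largest differences were at Gcnt1, the core 2 enzyme, which was lower by 0.56 with streptozotocin, and at C1galt1, which was higher by 0.32. C1galt1 alone of the 35 (2.86%) differed by at least 1.2-fold in the same direction in both cultures, and it was higher. By that measure 2.86% of all genes were higher and 3.41% lower, so the share of members that were higher equalled the background. At 1.5-fold there was none, against 0.661% of all genes higher and 0.661% lower. None of the differences passed the test in the main fit, which did not pair the arrays by culture. There limma found 0 of 38 member probe sets at an adjusted p under 0.05, as it did 0% of all 1246. At an unadjusted p under 0.05 limma found 0 of the 38, against 2.01% of all. When arrays of the same culture were paired through a replicate block, limma found 1 of 38 at an unadjusted p under 0.05, against 6.42% of all, and 0 at an adjusted p under 0.05. In bulk RNA, fewer cells of a type and less RNA per cell cannot be told apart.

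**Figure D1:**
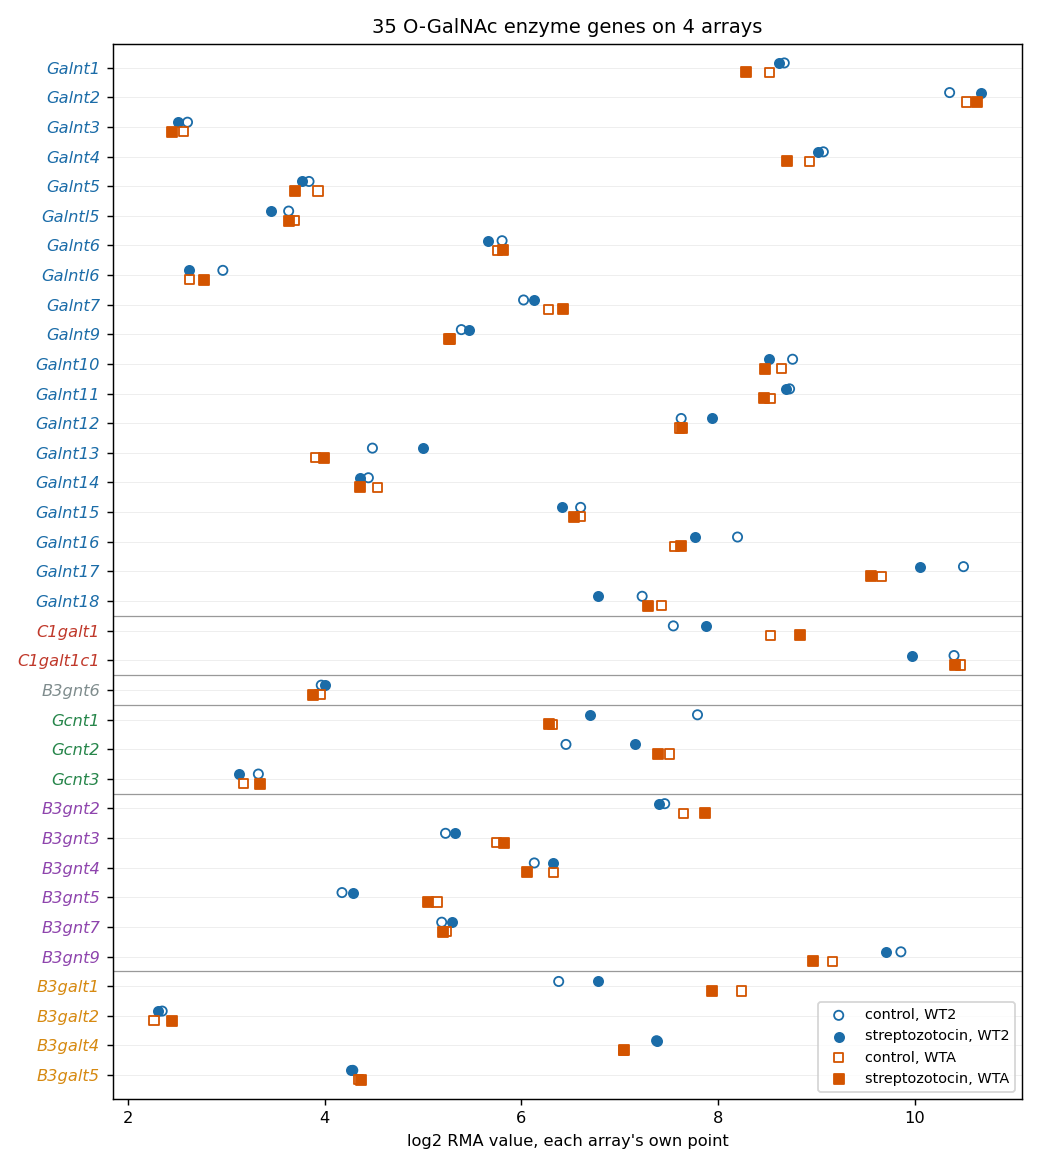
Log2 value (horizontal axis) of each of the 35 genes on each of the 4 arrays, in order of role from initiation at the top to B3galt enzymes at the bottom. Circles are WT2 and squares WTA, open for control and filled for streptozotocin. For C1galt1 both filled symbols lie to the right of the open symbol of their culture, and for Gcnt1 the open circle of WT2 (7.79) lies to the right of the other 3.

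For core 1 synthesis the enzyme and its chaperone differed in opposite directions. The C1galt1 value was 7.55 in control and 7.88 in streptozotocin cells of WT2, and 8.53 and 8.83 in those of WTA. The streptozotocin array was thus the higher in each culture, by 0.34 and 0.30, but the 2 groups overlapped because WT2 lay lower throughout. The streptozotocin arrays averaged 8.36 ± 0.67 and the control arrays 8.04 ± 0.70 (SD, n = 2 each), so the difference was smaller than the SD of either group. Each of these SDs holds the difference between the cultures. With the replicate block the difference of 0.32 had an SE of 0.09, on 1 residual degree of freedom. C1galt1 was the member probe set with an unadjusted p under 0.05 in that fit (limma adjusted p = 0.716). For C1galt1c1, the chaperone, the values were 10.40 and 9.97 in WT2 and 10.46 and 10.41 in WTA, control first. The streptozotocin array of WT2 was the low one, and the difference was -0.43 in WT2 and -0.06 in WTA. For C1galt1c1 limma's adjusted p was 1 in the main fit and 0.876 with the replicate block. The core 3 enzyme gene B3gnt6, known from gut epithelium, lay between 3.88 and 4.01 on the 4 arrays, below the lower quartile of each.

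The branching enzymes differed mainly in WT2. Gcnt1 stood at 7.79 in control and 6.70 in streptozotocin cells of WT2, and at 6.32 and 6.28 in those of WTA. The WT2 control array was the high one, and the other 3 lay within 0.42 of each other. The difference was -1.09 in WT2, 2.13-fold, and -0.03 in WTA, so the groups overlapped and their means were 6.49 ± 0.29 and 7.05 ± 1.04 (SD, n = 2 each). Without the WT2 control array the difference of Gcnt1 turned to 0.18. The second probe set of Gcnt1, which carries another transcript accession, stood at 5.80 and 5.27 in WT2 and at 5.01 and 5.09 in WTA, control first. It was also highest in WT2 control cells, and differed by -0.53 within WT2 and by 0.08 within WTA. Gcnt2, which makes the I branch of N-acetyllactosamine chains, stood at 6.45 and 7.15 in WT2 and at 7.51 and 7.39 in WTA. Here the WT2 control array was the low one, and the difference was 0.70 in WT2 and -0.12 in WTA. Gcnt1 and Gcnt2 were the only members that differed by at least 1.5-fold within WT2. Thus 1 member (2.86%) was lower and 1 (2.86%) higher, against 2.75% and 5.40% of all genes. Within WTA no member differed by that much, against 1.98% lower and 0.771% higher. Gcnt3, the core 2 and core 4 enzyme of mucous tissues, lay between 3.13 and 3.35 on all 4 arrays.

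Of the 19 Galnt genes, grouped as initiating enzymes by name alone, 11 had the lower value on the streptozotocin array of both cultures. Of the rest, 4 were higher in both and 4 went opposite ways. Among the 11, Galnt3, Galnt5 and Galntl5 lay below the lower quartile on every array, where a small difference was not detectable. Over all 908 genes 30.2% were lower and 22.1% higher in both, and over the 35 members 40% (14) and 20% (7). The median difference of the 19 was -0.11, against -0.01 over all genes, and 0 of them passed the test. The sizes were small, from -0.29 at Galnt18 to 0.30 at Galnt13. Galnt18 stood at 7.23 and 6.78 in WT2 and at 7.42 and 7.28 in WTA, control first. Galnt17, of the same subfamily, stood at 10.49 and 10.05 in WT2 and at 9.66 and 9.55 in WTA. In both genes the streptozotocin array was lower within each culture, and the difference in WT2 (-0.45 and -0.44) was larger than that in WTA (-0.14 and -0.11).

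Galnt10, which prefers peptides that already carry GalNAc, stood at 8.76 and 8.52 in WT2 and at 8.64 and 8.48 in WTA. Both streptozotocin arrays lay below both control arrays, with means of 8.50 ± 0.03 and 8.70 ± 0.08 (SD, n = 2 each, difference -0.20). In the main fit limma's adjusted p was 1, and with the replicate block it was 0.832. Galnt16 stood at 8.20 and 7.76 in WT2 and at 7.55 and 7.62 in WTA, so that only the WT2 control array was high. On the other side, Galnt13, a relative of Galnt1 known from neurons, stood at 4.49 and 5.0 in WT2 and at 3.91 and 3.99 in WTA. These values lie near the lower quartile, and both WTA arrays lay below both WT2 arrays.

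Galnt2, a broadly expressed initiator, stood at 10.35 and 10.67 in WT2 and at 10.53 and 10.63 in WTA, control first. Galnt12, which also acts on peptides that already carry GalNAc, stood at 7.62 and 7.93 in WT2 and at 7.60 and 7.63 in WTA. Both streptozotocin arrays lay above both control arrays for these 2 genes, by a mean of 0.21 and 0.17. In the main fit limma's adjusted p was 1 for each, and with the replicate block it was 0.861 and 0.916. Galnt2 and Galnt12 were the 2 members (5.71%) whose groups did not overlap and were higher, against 10.4% of all genes. In the other direction there were 5 members (14.3%), Galnt3, Galnt5, Galnt10, Galnt14 and Galnt15, against 14.4% of all genes, a share near the background. Of these, Galnt3 and Galnt5 lay below the lower quartile on every array.

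The other initiating enzymes differed by less. Galnt1 and Galnt4 each differed by -0.05 in WT2 and by -0.24 and -0.23 in WTA. Galnt11, which modifies receptors of the low-density lipoprotein family, differed by -0.05, Galnt14 by -0.13 and Galnt15 by -0.13. Galnt6 differed by -0.04, Galnt7 by 0.13 and Galnt9 by 0.03. Galnt3, whose enzyme protects FGF23 from cleavage, lay between 2.45 and 2.61 on the 4 arrays, near the lowest value of the table, and differed by -0.11. Galnt5 (-0.15), Galntl5 (-0.11) and Galntl6 (-0.10) were also below the lower quartile on every array.

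Among the extending enzymes the differences were again small. The 6 B3gnt genes had a median difference of 0.02, from -0.18 at B3gnt9 to 0.09 at B3gnt3, and the 4 B3galt genes one of 0.03. B3gnt9 was lower in both cultures (-0.16 and -0.20) and B3gnt3, which extends core 1, higher in both (0.10 and 0.08). B3gnt2, the main enzyme of poly-N-acetyllactosamine, differed by -0.06 in WT2 and 0.22 in WTA. For B3gnt4 the differences were 0.19 and -0.27, and for B3gnt7, which extends keratan sulfate, 0.10 and -0.04. B3gnt5, which starts lacto-series glycolipids, differed by 0.11 and -0.09. B3galt1, which makes type 1 chains, differed by 0.40 in WT2 and -0.29 in WTA. B3galt4, which acts on gangliosides, differed by 0.00 and 0.01. B3galt5 and B3galt2, both below the lower quartile on every array, differed by 0.00 and 0.07 over both cultures.

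**Figure D2:**
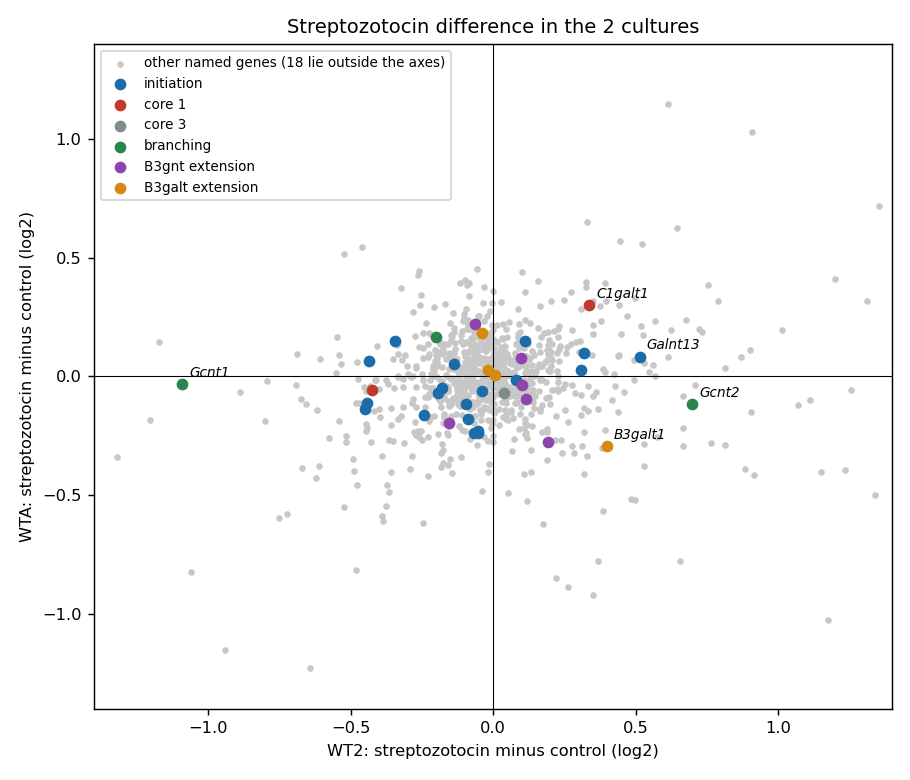
Difference between the streptozotocin and the control array (log2) in WT2 (horizontal axis) against that in WTA (vertical axis), 1 point per gene, with members coloured by role and other named genes in grey. Gcnt1 lies at the left (-1.09, -0.03), Gcnt2 at the right (0.70, -0.12) and C1galt1 in the upper right quadrant (0.34, 0.30).

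Over the members the SD of the streptozotocin differences was 0.324 in WT2 and 0.149 in WTA, and over all genes 0.434 and 0.231. Each culture holds 1 pair of arrays, so these spreads describe genes within a pair and carry no test.

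The cultures were compared next, in a fit with treatment and culture, since each named cell sample was measured with and without the compound. C1galt1 had the higher value in WTA, by 0.97 (SE 0.09), a 1.95-fold difference, and passed the test (limma adjusted p = 0.0445). That fit left 1 residual degree of freedom, so limma's SE leans on the spread pooled over all probe sets. The gene's own part of the SE is how far its streptozotocin difference disagreed between the cultures. A gene whose 2 differences are alike, as those of C1galt1 are, thus has a small SE. B3galt4 and B3gnt9 also had an SE of 0.09. Both WTA arrays, at 8.53 and 8.83, lay above both WT2 arrays, at 7.55 and 7.88, with means of 7.71 ± 0.24 and 8.68 ± 0.21 (SD, n = 2 each). The difference was 0.98 in control and 0.95 in streptozotocin cells. C1galt1 was the only 1 of 38 member probe sets (2.63%) past the test, against 2.25% of all probe sets, which is near the background. At an unadjusted p under 0.05 limma found 11 of the 38 (28.9%), against 16.9% of all. The result at C1galt1 lies close to the threshold: its adjusted p in limma was 0.03 after median centring, 0.0133 with a robust prior, 0.0531 with an intensity trend, 0.0695 after quantile normalization, 0.0743 among the brighter 623 probe sets and 0.126 without the treatment term. With any 1 of the 4 arrays left out it ranged from 0.0977 to 0.759, while the difference stayed between 0.80 and 1.13. Only 2 cell samples enter this fit, so it does not show how far other such samples would vary.

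**Figure D3:**
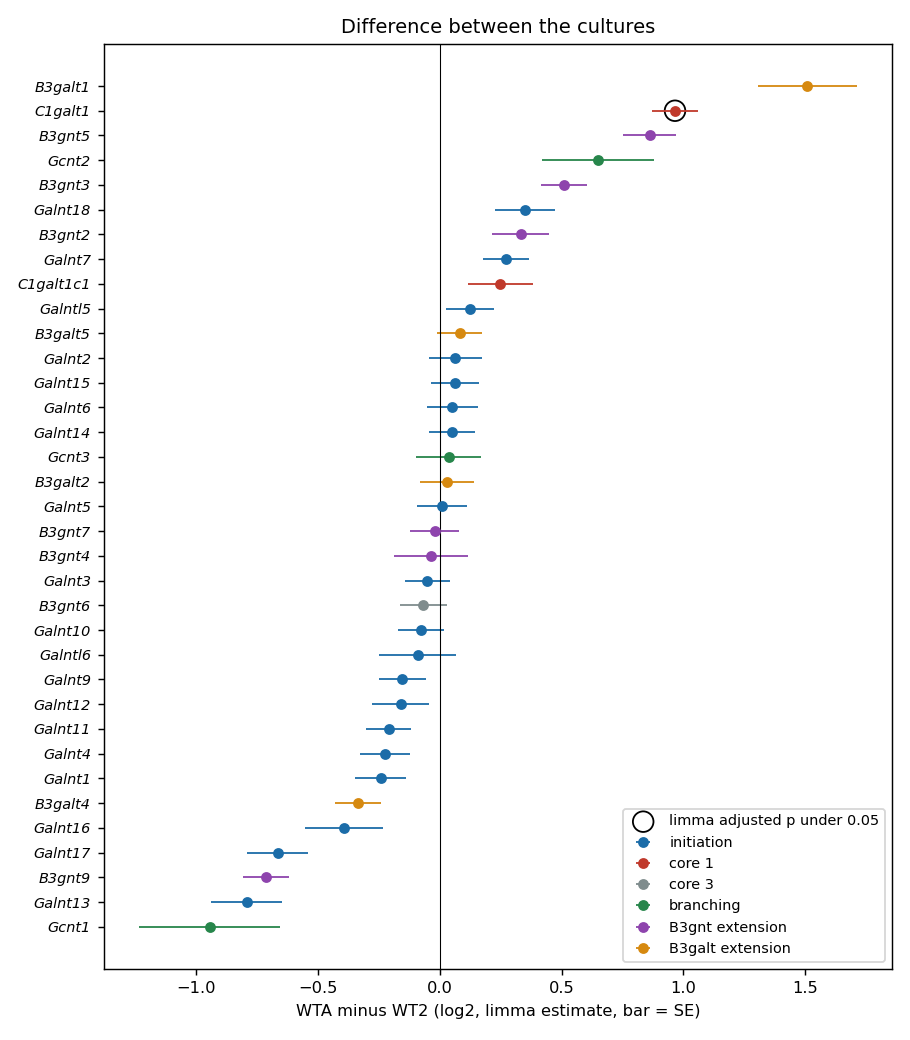
WTA minus WT2 (log2, limma estimate) for the 35 genes in order of size, with bars of 1 SE and colours for the role. The ring marks C1galt1 (0.97), the 1 gene with an adjusted p under 0.05. B3galt1 (1.51) lies above it with a wider bar, and Gcnt1 (-0.94) is at the other end.

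The chaperone did not follow at that size. C1galt1c1 was higher in WTA by 0.25 (SE 0.13, limma adjusted p = 0.484), with 0.06 between the control arrays and 0.43 between the streptozotocin arrays.

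Of the extending enzymes, B3galt1 had the largest culture difference among the 35, and B3gnt5 and B3gnt9 the largest of the B3gnt genes, in opposite directions. B3galt1 stood at 6.38 and 6.78 in WT2 and at 8.24 and 7.94 in WTA, control first. The estimate for WTA was larger by 1.51 (SE 0.20, 2.85-fold) and missed the threshold (limma adjusted p = 0.0702). B3galt1 passed after median centring (0.0388) and with an intensity trend (0.0488). It did not pass without the treatment term, after quantile normalization or among the brighter probe sets. Its identifier ends in x, a mark that can stand for probes shared with other genes. The second probe set of B3galt1, without that mark, stood at 5.82 and 6.35 in WT2 and at 7.48 and 7.10 in WTA and gave 1.2 (SE 0.25, limma adjusted p = 0.136). Both probe sets thus separated the cultures in the same direction.

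B3gnt5 stood at 4.18 and 4.29 in WT2 and at 5.14 and 5.05 in WTA. The WT2 values were below the lower quartile of their arrays, and the difference was 0.86 (SE 0.11, limma adjusted p = 0.0647). It passed after median centring (limma adjusted p = 0.0398), with an intensity trend (0.0336) and with a robust prior (0.0228). Without the treatment term and after quantile normalization it did not pass. B3gnt3 stood at 5.23 and 5.33 in WT2 and at 5.75 and 5.83 in WTA, a difference of 0.51 (limma adjusted p = 0.114).

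B3gnt9, whose activity is less well known, went the other way, at 9.86 and 9.70 in WT2 and 9.16 and 8.97 in WTA. Its difference of -0.71 (SE 0.09) had a limma adjusted p of 0.0702, and 0.0307 with a robust prior. Without the treatment term, after quantile normalization and among the brighter probe sets it did not pass. B3galt4 differed by -0.34 between the control arrays and by -0.34 between the streptozotocin arrays (limma adjusted p = 0.215). B3gnt2 differed by 0.33 (limma adjusted p = 0.304). B3gnt4 (-0.04), B3gnt7 (-0.02), B3gnt6 (-0.07), B3galt2 (0.03) and B3galt5 (0.08) differed by less than their SE, which ran from 0.09 to 0.15.

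The branching genes separated the cultures in opposite directions. Gcnt1 was lower in WTA by 0.94 (SE 0.29, limma adjusted p = 0.248), with -1.47 between the control and -0.42 between the streptozotocin arrays. Without the WT2 control array its difference was -0.40, and without the WT2 streptozotocin array -1.49, the only setting in which it passed (limma adjusted p = 0.0334). Gcnt2 was higher in WTA by 0.65 (SE 0.23, limma adjusted p = 0.302), with 1.05 and 0.24 in the same order. In both genes the WT2 control array lay farthest from the arrays of WTA. Gcnt3 differed by 0.04.

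Of the 19 genes grouped as initiating enzymes, Galnt13 (-0.79, SE 0.15) and Galnt17 (-0.67, SE 0.13) had the largest culture differences, both lower in WTA (limma adjusted p = 0.114 and 0.124). Galnt16 was lower by 0.39, Galnt18 higher by 0.35 and Galnt7 higher by 0.27 (limma adjusted p = 0.356, 0.297 and 0.29). Galnt1, Galnt4 and Galnt11 were lower by 0.24, 0.23 and 0.21, Galnt12 by 0.16 and Galnt9 by 0.15. The other 9 lay between -0.09 (Galntl6) and 0.12 (Galntl5): Galnt10 at -0.08, Galnt3 at -0.05, Galnt5 at 0.01, Galnt6 and Galnt14 at 0.05, and Galnt2 and Galnt15 at 0.06. The median of the 19 was -0.08, against -0.02 over all genes. Over all members 11 (31.4%) had both WTA arrays above both WT2 arrays and 11 (31.4%) below, against 22.1% and 28.4% of all genes.

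**Figure D4:**
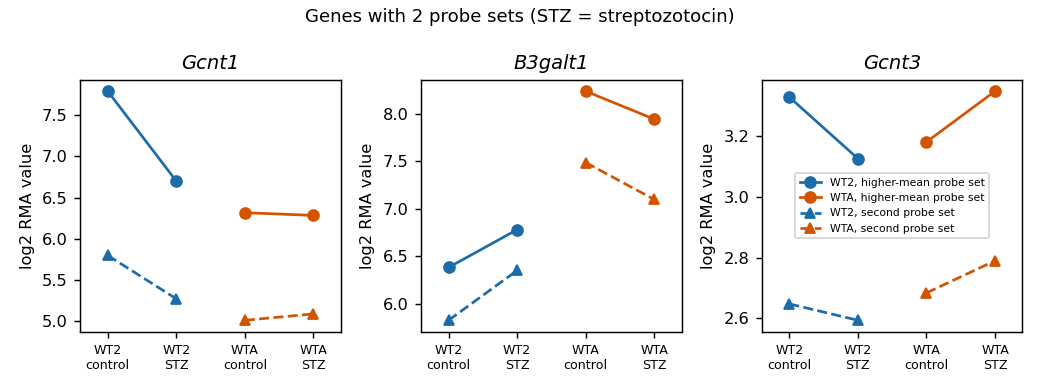
Log2 value (vertical axis, its range set per gene) on the 4 arrays for the 3 members with 2 probe sets, with WT2 in blue and WTA in orange, a solid line for the probe set with the higher mean and a dashed line for the second. For Gcnt1 and B3galt1 both probe sets separate the cultures in the same direction, and for Gcnt3 all values lie between 2.59 and 3.35, below the lower quartile of the arrays.

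Other cell types were followed through their markers. Of 12 endothelial markers 6 were measured, and their median culture difference was 0.47. Esm1, a proteoglycan that endothelial cells secrete, stood at 3.99 and 4.48 in WT2 and at 9.0 and 9.33 in WTA, while Pecam1 lay between 3.79 and 4.0 and Sele between 3.14 and 3.41 on all arrays. Esm1 was higher in WTA by 4.93 (limma adjusted p = 0.00304) and Cd34 lower by 1.07 (limma adjusted p = 0.0445), while Emcn differed by 1.22 and Selp by 0.79 without passing the test (limma adjusted p = 0.0873 and 0.0897). The summed level of the 6, on the linear scale, was 1149 to 1527 in WT2 and 1326 to 1354 in WTA. Cd34, which is also in the list of glycan carriers, was the brightest of the 6 on both WT2 arrays, so these similar sums join a lower Cd34 to a higher Esm1. Of 7 fibroblast markers 4 were measured, with a summed level of 11220 to 15400 in WT2 and 7795 to 10086 in WTA, and of 7795 to 11220 with streptozotocin and 10086 to 15400 without. All 4 were lower on the streptozotocin array of both cultures, as were 30.2% of all genes. The median difference of the 4 was -0.43, and 0 of them passed the test. Dcn and Pdgfra were the brightest of the 4 on every array and so weigh most in these sums. The 9 of 14 leukocyte and macrophage markers measured summed to 379 to 422 in WT2 and 391 to 466 in WTA, and the 2 of 6 epithelial markers to 182 to 187 and 170 to 198. RMA values hold no zeros, so no marker is at 0. The part of these cell types in the culture and streptozotocin differences was not tested.

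The promoters of the 3 genes with the largest positive culture difference among those with a RefSeq promoter entry are shown, since both WTA arrays lay above both WT2 arrays for each of them. Each window holds the 250 bases before the gene's start (RefSeq, GRCm38.p6, plus strand, read 5′ to 3′). Capitals mark the GC box GGGCGG or its reverse complement CCGCCC, the core of binding sites of Sp-family factors. The windows are chr6:7844974-7845223 for C1galt1, chr2:67565439-67565688 for B3galt1, the upstream of 2 listed starts, and chr16:19759984-19760233 for B3gnt5.
C1galt1: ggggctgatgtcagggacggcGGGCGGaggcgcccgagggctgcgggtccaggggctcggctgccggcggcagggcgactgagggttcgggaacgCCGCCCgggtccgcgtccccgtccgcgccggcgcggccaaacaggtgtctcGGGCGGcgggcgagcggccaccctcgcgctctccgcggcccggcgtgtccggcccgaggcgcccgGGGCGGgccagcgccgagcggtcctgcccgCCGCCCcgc
B3galt1: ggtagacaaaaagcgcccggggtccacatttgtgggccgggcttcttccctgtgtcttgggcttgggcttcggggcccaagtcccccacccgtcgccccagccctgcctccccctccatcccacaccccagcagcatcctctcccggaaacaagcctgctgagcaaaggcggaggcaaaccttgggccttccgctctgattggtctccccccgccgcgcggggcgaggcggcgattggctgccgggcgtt
B3gnt5: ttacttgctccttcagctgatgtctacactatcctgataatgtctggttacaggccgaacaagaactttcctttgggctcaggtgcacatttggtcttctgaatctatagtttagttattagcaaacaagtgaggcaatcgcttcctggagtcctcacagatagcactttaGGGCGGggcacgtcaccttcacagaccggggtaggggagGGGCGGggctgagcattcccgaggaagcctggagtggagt

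The C1galt1 window held 5 GC boxes in 82.8% G or C, that of B3gnt5 2 in 51.2%, and that of B3galt1 none in 68.0%. The median over all windows was 52.4% G or C. Of the 35 members 26 had a promoter entry, with 38 windows, of which 15 (39.5%) held a GC box on either strand, against 32.7% of all 32851 windows of this length. The RUNX core TGTGGT or its reverse complement ACCACA was searched because the study's design names Runx2. It was in 2 of the 38 windows (5.26%), 1 each of B3gnt3 and B3galt5, against 14% of all windows. These matches describe letters in the windows and no binding was measured.

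Other genes of the pathway were taken from 5 lists. The donor list, of genes that supply and carry UDP-GalNAc and UDP-galactose, had 10 of 11 genes measured and 0 past the test in either comparison. Its 2 largest streptozotocin differences were at Slc35a3, a UDP-GlcNAc transporter gene, and Ugp2, which makes UDP-glucose. For Slc35a3 these were -0.52 in WT2 and -0.25 in WTA, and for Ugp2 0.20 and 0.11. The median streptozotocin difference of the list was 0.00, against -0.01 over all genes.

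The 12 sialyltransferase genes that can cap O-glycans had 0 past the test in either comparison and a median streptozotocin difference of 0.04. St3gal1, which caps core 1, differed by -0.04 in WT2 and -0.48 in WTA. St6galnac2, which adds sialic acid to the GalNAc itself, stood at 6.72 and 7.60 in WT2 and at 8.44 and 8.05 in WTA. Its WTA minus WT2 difference of 1.09 (SE 0.34) missed the threshold (limma adjusted p = 0.26), and the WT2 control array was again the lowest.

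Of the 25 elongation and capping genes 24 were measured, and 0 passed the streptozotocin test. Past the culture test was 1 of the 24, higher in WTA, against 14 of all 908 genes higher. That was Gal3st2, a sulfotransferase of galactose, which stood at 4.57 and 4.81 in WT2 and at 5.46 and 5.78 in WTA. It was higher in WTA by 0.93, close to the threshold (limma adjusted p = 0.0445), and higher with streptozotocin by 0.25 and 0.32 in the cultures. The largest streptozotocin differences of the list were at Chst2, a sulfotransferase of N-acetylglucosamine, with -0.72 and -0.58, and at Fut4, a fucosyltransferase, with 0.47 and 0.26.

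Of 26 proteins that carry such glycans 15 were measured, and 0 passed the streptozotocin test. Past the culture test was 1 of the 15, lower in WTA, against 10 of all 908 genes lower. That was Cd34, a sialomucin, at 10.46 and 9.99 in WT2 and 9.38 and 8.93 in WTA, which was lower in WTA by 1.07 and differed with streptozotocin by -0.48 and -0.46. Cd44, the hyaluronan receptor, differed with streptozotocin by 0.75 and 0.38. Of 17 genes that bind or remove GalNAc and galactose 15 were measured and 0 passed in either comparison. Their largest streptozotocin differences were at the dim Asgr1 (0.18), a hepatic lectin, and at Lgals4 (-0.17), a galectin.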

How the data were processed

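Biotin-labelled cRNA for the arrays was made from Trizol-extracted total RNA by an Affymetrix procedure, per the labels' protocols. The authors deposited log2 values for each probe set. The submitters' processing notes name RMA, without a version or settings. RMA usually makes the arrays' distributions equal, so a shift of most genes 1 way would not be seen. Probe sets were named by RefSeq accession, without version, through a mouse gene table (GRCm38.p6): 962 of 1246 had 1 symbol and 284 none.

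Groups came from the sample titles. A replicate number stands for 1 named cell sample across both arms. Same-numbered arrays deviated together (correlation 0.600 across probe sets), so the numbers pair the arrays. The main streptozotocin fit left the pairing out, so the culture difference counts in its error. The fit with the replicate block was an alternative. Its error holds how far the streptozotocin difference disagreed between the cultures. Tests were limma 3.58.1 in R 4.3.3 (lmFit, eBayes) on all 1246 probe sets with Benjamini-Hochberg adjustment and a threshold of 0.05, tested on simulated data. The simulated arrays for the streptozotocin fit held no culture difference, unlike these arrays, so the check does not cover that part of the spread. All members are named; array values are given for the 5 largest differences in each direction and comparison and for genes past a test. Other pathway genes are named when past a test or among the 2 largest streptozotocin differences of their list. Members and lists were chosen with earlier results of these data known.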

Additional observations from a re-analysis of the deposited data

Results flagged for a closer look

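B3galt1 went opposite ways in the cultures with streptozotocin by at least 0.2 on the log2 scale in each. Its first probe set differed by 0.398 in WT2 and by -0.294 in WTA, and its second by 0.524 in WT2 and by -0.389 in WTA. Each culture holds 1 array per arm, so the difference between the cultures was not tested.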

How the results depend on the processing

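The streptozotocin test gave the same count in each setting: limma found 0 probe sets, and 0 members, in every alternative run, the replicate block and each array left out included, and the block changed no call. The culture count over all probe sets was 28 and moved to 13 without the treatment term, 8 after quantile normalization, 2 among the brighter 623 probe sets and 49 with a robust prior, and ranged from 0 to 18 with 1 array left out. The count of members was 1 and moved to 0 without the treatment term, after quantile normalization and among the brighter probe sets, to 3 after median centring, to 2 with an intensity trend (B3galt1 and B3gnt5, not C1galt1) and to 3 with a robust prior, and ranged from 0 to 1 with 1 array left out. At least 1.5-fold in both cultures were 12 genes and 0 members, at 1.2-fold 57 and 1, and at 2-fold 2 and 0. In the culture fit with 1 array left out the treatment term was dropped, since no residual degrees of freedom remained with it, and a lone array was assumed to vary like the others. Scalings moved the median of all differences by at most 0.021. Every streptozotocin fit left only 1 or 2 residual degrees of freedom, so its unchanged count of 0 does not measure how firm that result is.

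The signs of 3 differences turned at sizes under 0.02: the streptozotocin difference of Gcnt3 to 0.004 with the mean of its probe sets and of B3galt5 to -0.018 after quantile normalization, and the culture difference of Galnt15 to -0.003 after quantile normalization. Leaving out 1 array unbalances the cultures, so a streptozotocin difference then also holds the culture difference. Its sign turned for 24 genes, with ranges of -0.876 to 0.980 for B3galt1, -0.163 to 0.173 for B3galt4, -0.048 to 0.056 for B3galt5, -0.157 to 0.317 for B3gnt2, -0.173 to 0.348 for B3gnt3, -0.176 to 0.095 for B3gnt4, -0.473 to 0.493 for B3gnt5, -0.078 to 0.046 for B3gnt6, -0.013 to 0.078 for B3gnt7, -0.544 to 0.191 for B3gnt9, -0.173 to 0.811 for C1galt1, -0.312 to 0.022 for Galnt1, -0.163 to 0.059 for Galnt11, -0.206 to 0.803 for Galnt13, -0.508 to 0.136 for Galnt16, -0.694 to 0.139 for Galnt17, -0.301 to 0.014 for Galnt4, -0.116 to 0.030 for Galnt6, -0.016 to 0.273 for Galnt7, -0.069 to 0.132 for Galnt9, -0.266 to 0.071 for Galntl6, -1.298 to 0.175 for Gcnt1, -0.237 to 0.818 for Gcnt2 and -0.128 to 0.093 for Gcnt3. The culture difference turned for 12 genes, with ranges of -0.062 to 0.121 for B3galt2, -0.174 to 0.101 for B3gnt4, -0.073 to 0.030 for B3gnt7, -0.199 to 0.043 for Galnt10, -0.039 to 0.140 for Galnt14, -0.034 to 0.160 for Galnt15, -0.096 to 0.224 for Galnt2, -0.110 to 0.007 for Galnt3, -0.112 to 0.126 for Galnt5, -0.018 to 0.121 for Galnt6, -0.262 to 0.081 for Galntl6 and -0.064 to 0.138 for Gcnt3.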
